A study of Mus musculus with 20 samples.

Results

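The stanniocalcins and hypoxia target genes described here are 10 genes of the mouse cecum, namely Stc1, its paralog Stc2, the oxygen-regulated transcription factor subunit Hif1a and 7 targets of that factor (Egln3, Car9, Slc2a1, Vegfa, Adm, Ndrg1 and Bnip3). They were found by symbol among the 19887 genes of the count table, and all 10 were among the 15348 genes with enough counts to be tested. Stc1 was selected on its fall with starch in these mice, so its changes with diet are given as a description without a test. The other 9 were taken as its paralog or for their tie to the hypoxia factor, and their tests were adjusted over all 15348 genes. These 9 were also chosen with earlier results of these data known, so their tests and counts are not independent of those results. RNA from the cecum of 20 C57BL/6 mice was sequenced, with 5 mice on each of 4 diets. All mice, from weaning (an age of 3 weeks in the labels, 3 to 4 in the study's methods), first spent 6 weeks on the Total Western Diet (TWD), and were then fed for a further 3 weeks either the TWD alone (0% RPS) or the TWD with 2, 5 or 10% raw potato starch (RPS), a starch that resists digestion and is fermented in the cecum. The 0% RPS mice are therefore controls on a Western diet, not on chow. The comparison asks what the added starch did to these genes, and whether Stc1 moved with the other hypoxia targets. Sex, cage and litter were not in the labels, so the p-values measure the spread between these mice only.

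In cells short of oxygen the prolyl hydroxylases no longer mark the HIF-1 alpha protein for destruction, and the protein then pairs with ARNT and switches on genes for glucose uptake, glycolysis, pH control, vessel growth and removal of mitochondria. This control acts mainly on the protein, which was not measured here, so the Hif1a values below are of its mRNA alone. The large bowel is known for low oxygen at its epithelial surface, and use of oxygen by cells that burn butyrate is known to stabilize the factor there. Stanniocalcins are secreted glycoproteins, first known from fish as regulators of calcium, which in mammals inhibit the pappalysin proteases and respond to hypoxia in many cell types.

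The library totals ran from 14967798 to 42687283 gene counts. At these depths 3 counts correspond to 0.0698 to 0.190 CPM, counts scaled to a library of 1000000,, and every member was above this in every mouse. Levels below are CPM with library sizes scaled by edgeR's trimmed mean of M-values. Per kilobase of merged exons, the scale on which genes can be set side by side, the mean level in 0% RPS mice was highest for Ndrg1 at 75.4 ± 12.6 (SD, n = 5) and Slc2a1 at 75.4 ± 9.36, which did not differ beyond their spread. Car9 followed at 47.8 ± 3.17 and Vegfa at 31.8 ± 2.81 on the same scale, and then Egln3 at 11.7 ± 2.75. The other members lay lower still, from 5.10 ± 1.99 for Adm to 2.09 ± 0.486 CPM per kilobase for Stc1, the lowest of the 10. The neighbours Hif1a (3.17 ± 0.333), Stc2 (2.86 ± 0.508), Bnip3 (2.45 ± 0.636) and Stc1 each overlapped in spread with the next in this order, though Hif1a and Stc1 did not overlap.

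**Figure D1:**
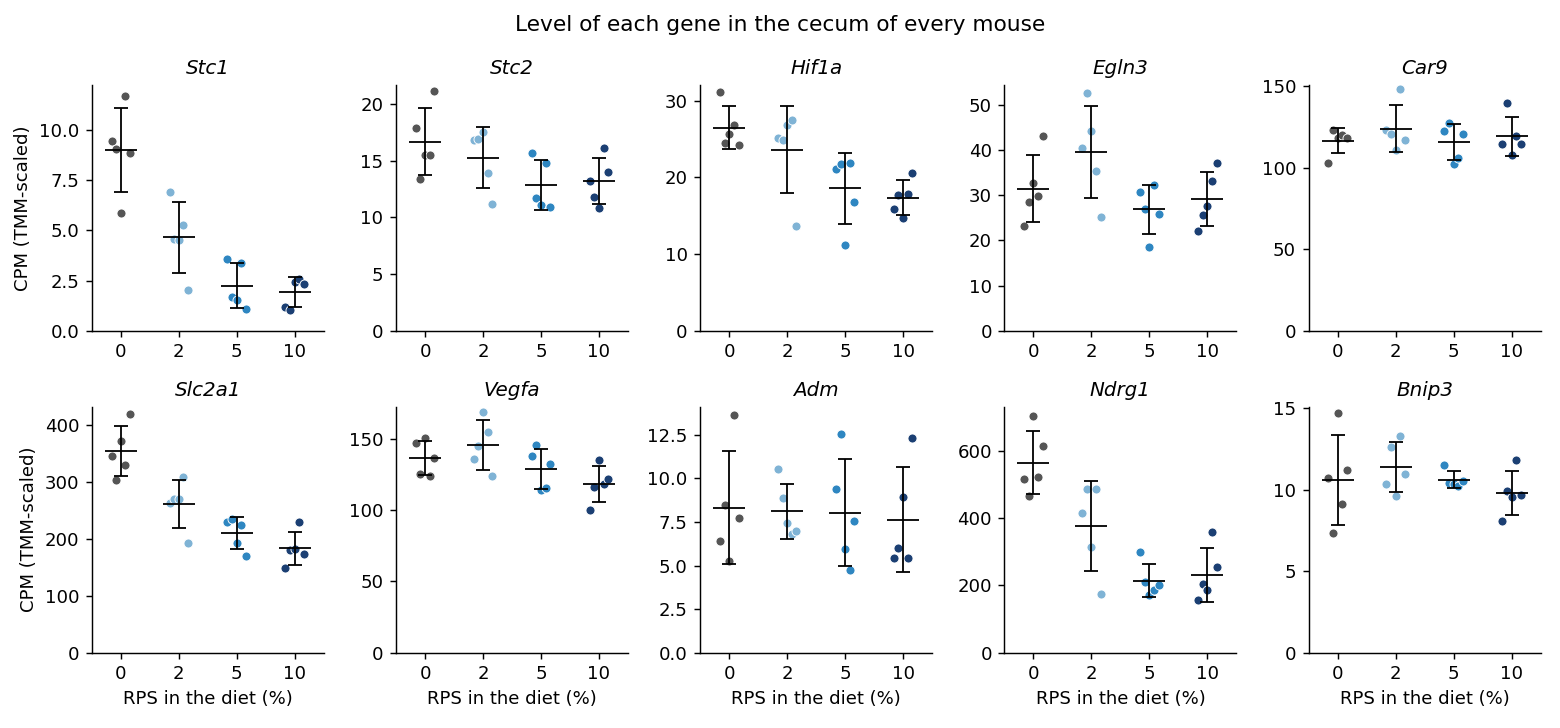
Level of the 10 genes in every mouse (points, CPM) by percent RPS in the diet, with the mean and SD of 5 mice as a bar and whiskers; each vertical axis starts at 0. The mice fed 5 or 10% RPS lay below every 0% RPS mouse for Stc1, Hif1a, Slc2a1 and Ndrg1, whereas the diets overlapped for the other 6 genes.

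The promoters of Slc2a1 and Hif1a are shown because the 5 and 10% RPS mice did not overlap the 0% RPS mice for these genes. That of Vegfa is shown as an example of a gene whose diets overlapped. The hypoxia factor binds a short core, ACGTG or GCGTG, and capitals mark each such core on either strand in the GRCm39 sequence, 5′ to 3′ along the gene's own strand, upstream of the start of the canonical transcript in GENCODE M39. The stretches span -250 to -1, for Slc2a1 at chr4:118965658-118965907, plus strand, for Hif1a at chr12:73954320-73954569, plus strand, and for Vegfa at chr17:46343310-46343559, minus strand.
Slc2a1: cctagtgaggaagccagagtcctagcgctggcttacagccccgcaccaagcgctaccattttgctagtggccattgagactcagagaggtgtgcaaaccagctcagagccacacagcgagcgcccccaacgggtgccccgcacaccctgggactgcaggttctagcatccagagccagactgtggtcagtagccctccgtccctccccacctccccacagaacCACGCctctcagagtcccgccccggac
Hif1a: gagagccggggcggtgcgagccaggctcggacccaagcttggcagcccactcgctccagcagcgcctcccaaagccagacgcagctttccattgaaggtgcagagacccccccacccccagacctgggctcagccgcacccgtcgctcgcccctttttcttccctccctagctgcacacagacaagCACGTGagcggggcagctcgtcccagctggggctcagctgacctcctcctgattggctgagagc
Vegfa: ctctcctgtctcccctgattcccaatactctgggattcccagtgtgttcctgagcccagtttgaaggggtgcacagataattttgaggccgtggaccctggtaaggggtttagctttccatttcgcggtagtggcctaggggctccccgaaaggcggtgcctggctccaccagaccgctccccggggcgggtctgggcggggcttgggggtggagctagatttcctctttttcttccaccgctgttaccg
Slc2a1 carried 1 core, on the opposite strand, from base -27 to -23. In Hif1a the palindrome CACGTG held an overlapping core on each strand, counted as 2. Over the full 250 bases, Ndrg1 and Bnip3 had 3 and 5 cores, Stc2 and Adm 2 each, Egln3 1, and Car9 and Vegfa 0. The diets also overlapped for Stc2, Egln3, Adm and Bnip3, which carry cores, so the printed stretches do not stand for all members. The windows of Car9, Adm and Ndrg1 lie wholly in annotated exons. A core was thus present in 7 of these 9 windows (77.8%), against 49.2% of 15336 windows of the same length from tested genes. Of the 7 genes with a core, Slc2a1 and Ndrg1 passed the test with 10% RPS, and Stc2, Hif1a, Egln3, Adm and Bnip3 did not. A match is a description of the letters, and no match says only that they are not in this window.

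With 10% RPS, Slc2a1 and Ndrg1 fell past the threshold among the 9 members tested, and no member rose past it. The threshold combined edgeR's quasi-likelihood test, with a p of 0.05 or less after Benjamini-Hochberg adjustment, and a change of 1.5-fold or more, which 1.04% of all genes passed. Without adjustment, 5 of the 9 were lower at p under 0.05 (Slc2a1, Ndrg1, Hif1a, Stc2 and Vegfa), against 19.5% of all genes in either direction. With 5% RPS the same pair, Slc2a1 and Ndrg1, passed (0.195% of all genes), and 4 of 9 were under the unadjusted p (13.3% of all genes). With 2% RPS 0 of 9 passed, as did 0% of all genes in edgeR, and DESeq2 called 0 of the 9 and 5 genes in all. At an unadjusted p under 0.05, Slc2a1 and Ndrg1 were lower with 2% RPS, 2 of 9 against 5.77% of all genes. A linear trend over the percent of RPS passed for Slc2a1 and Ndrg1 (adjusted p at most 0.05, 1.11% of all genes), and 5 of 9 had an unadjusted trend p under 0.05 (18.8% of all genes). The trend of Ndrg1 passed in only 9 of the 20 fits that left out 1 mouse, and that of Slc2a1 in 19. The 3 contrasts share the same 0% RPS mice and are not independent of one another.

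Counted by overlap of the mice, 3 of the 9 members other than Stc1 (Hif1a, Slc2a1 and Ndrg1) were lower in all 5 mice fed 10% RPS than in any 0% RPS mouse. Since these 9 were chosen with earlier results of these data known, the shares of all genes below stand beside them as a description. Groups that do not overlap were found in 4.88% of all genes in this comparison. Hif1a, Slc2a1 and Ndrg1 were also separated with 5% RPS, 3 of 9 against 3.57% of all genes. With 2% RPS 0 of 9 were separated, against 1.09% of all genes. Stc1 was separated with 5 and 10% RPS as well, from which nothing is read because it was chosen by its fall. The 2, 5 and 10% RPS groups overlapped with each other for every member.

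**Figure D2:**
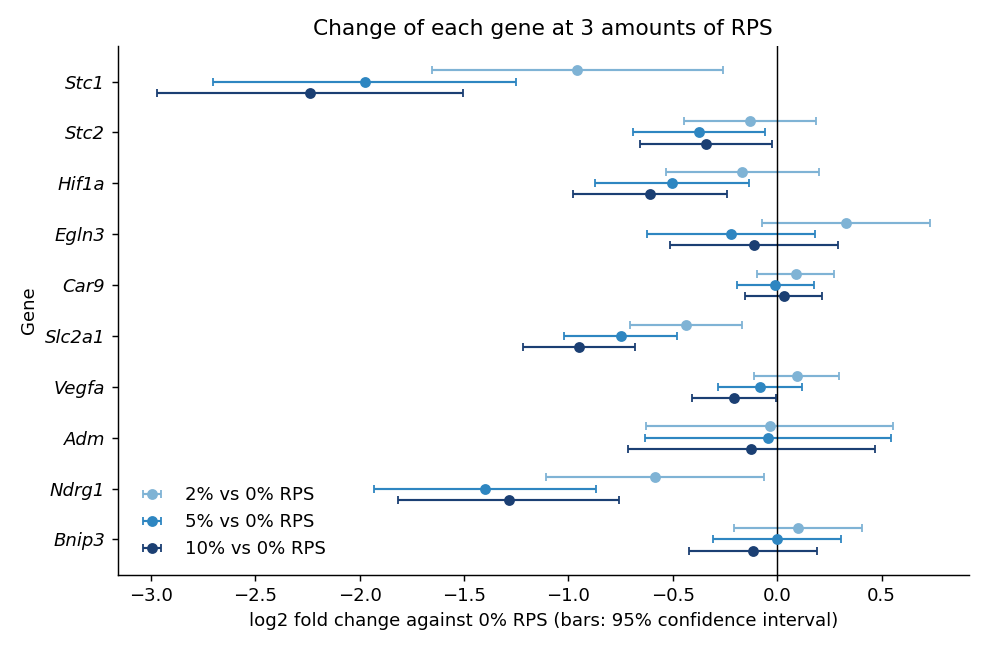
log2 fold change of each gene against 0% RPS (horizontal axis) with 2, 5 and 10% RPS, as points with 95% confidence intervals from edgeR, with Stc1, selected on its fall, as a description only. The intervals for Slc2a1 and Ndrg1 lie below 0 at all 3 amounts, those for Hif1a and Stc2 lie below 0 at 5 and 10%, that for Vegfa only at 10%, and those for Egln3, Car9, Adm and Bnip3 include 0 throughout.

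Stc1 (chr14:69266575-69279253, plus strand) had the largest change of the members. In the 0% RPS mice its level was 9.47, 9.08, 5.85, 11.7 and 8.87 CPM. The mice fed 2% RPS had 6.91, 4.56, 4.52, 5.27 and 2.03 CPM. Of these only mouse 1, at 6.91 CPM, was above the lowest control, and mouse 5 at 2.03 CPM already lay in the range of the higher amounts. With 5% RPS the values were 3.56, 1.70, 1.52, 3.37 and 1.08 CPM, and with 10% RPS they were 1.19, 1.06, 2.43, 2.59 and 2.33 CPM. Neither group reached any control, and the ranges of the 5% and 10% RPS mice overlapped. The means were 9.0 ± 2.09, 4.66 ± 1.76, 2.25 ± 1.14 and 1.92 ± 0.735 CPM with 0, 2, 5 and 10% RPS. On the log2 scale the difference from 0% RPS was -0.96 (SE 0.33) with 2%, -1.98 (SE 0.35) with 5% and -2.24 (SE 0.35) with 10% RPS, the last equal to a 4.72-fold lower level. These values rest on 23 to 349 counts per mouse. Since the gene was chosen by this fall, no test is given.

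Stc2 (chr11:31307307-31320124, minus strand), whose protein inhibits the same proteases, was measured at 175 to 737 counts per mouse. Its 0% RPS values were 17.8, 13.4, 15.5, 15.5 and 21.1 CPM. With 10% RPS they were 13.2, 11.8, 10.8, 16.1 and 14.0 CPM. The ranges overlapped, with 3 of 5 mice below all controls. The difference was -0.34 on the log2 scale (SE 0.15), with an edgeR adjusted p of 0.226 over all genes. With 5% RPS it was -0.37 (SE 0.15, edgeR adjusted p = 0.269) and with 2% RPS -0.13 (SE 0.15). Stc2 thus did not pass the test at any amount. The difference between the paralogs was not tested.

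Hif1a (chr12:73948149-73996321, plus strand) encodes the oxygen-regulated subunit itself. Its level in 0% RPS mice was 31.1, 24.5, 25.7, 26.9 and 24.2 CPM. In mice fed 2% RPS it was 25.1, 24.9, 26.9, 27.5 and 13.6 CPM. Apart from mouse 5 these matched the range of the controls. With 5% RPS the values were 21.1, 21.8, 11.2, 21.9 and 16.8 CPM, and with 10% RPS 15.9, 17.7, 14.8, 17.9 and 20.6 CPM. All 10 of these lay below the lowest control at 24.2 CPM. The difference with 10% RPS was -0.61 (SE 0.18) on the log2 scale and fell short of the threshold (edgeR adjusted p = 0.0734). With 5% RPS it was -0.51 (SE 0.18, edgeR adjusted p = 0.185), and the trend was -0.062 per percent RPS (edgeR adjusted p = 0.0614). The study, which used DESeq2, listed Hif1a as lower in the cecum with both 5 and 10% RPS. The call depended on the test, since DESeq2 as run here called Hif1a with 10% RPS (-0.61, DESeq2 adjusted p = 0.0237), though not with 5% RPS. The edgeR fit of 10 and 0% RPS alone also called it with 10% RPS (adjusted p = 0.0316). It also passed in edgeR when 2% RPS mouse 5 (adjusted p = 0.0351) or 5% RPS mouse 3 (adjusted p = 0.0498), the lowest mouse of each diet, was left out. With a marker sum added to the fit, as described further on, the difference was smaller, at -0.22 with the goblet sum (edgeR adjusted p = 0.562) and -0.45 with the smooth muscle sum (edgeR adjusted p = 0.211).

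Egln3 (chr12:54225767-54250673, minus strand) encodes a prolyl hydroxylase that is itself induced by the factor it degrades. Its level was 31.4 ± 7.39 CPM with 0% RPS, 39.5 ± 10.2 with 2%, 26.9 ± 5.40 with 5% and 29.1 ± 5.94 with 10% RPS (SD, n = 5 each). The groups overlapped at every amount. The difference with 10% RPS was -0.11 on the log2 scale (95% interval -0.51 to 0.29, edgeR adjusted p = 0.797), and with 2% RPS it was 0.33 (-0.07 to 0.73). Of the 14 genes fixed as oxygen sensors and HIF subunits, all tested, 0 passed the edgeR threshold with 10% RPS (1.04% of all genes) and Hif1a alone had an unadjusted p under 0.05, 1 of 14 against 19.5% of all genes. The median log2 fold change of the 14 was -0.06, beside 0.00 over all genes. Epas1, which encodes the related HIF-2 alpha subunit, had 143 ± 17.0 CPM with 0% and 123 ± 16.3 with 10% RPS (-0.22, edgeR adjusted p = 0.328).

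Slc2a1 (chr4:118965908-118996365, plus strand) encodes GLUT1, the glucose carrier that hypoxia induces. The 0% RPS mice had 345, 303, 371, 329.5 and 418 CPM. With 2% RPS the level was 263, 269, 270.4, 309 and 192 CPM, so that 4 of 5 mice were below every control. With 5% RPS it was 229, 235, 193, 224 and 169.7 CPM, and with 10% RPS 148, 181, 182, 229.9 and 174 CPM. No mouse fed 5 or 10% RPS reached the lowest control at 303 CPM. The difference was -0.44 (SE 0.13, edgeR adjusted p = 0.712) with 2%, -0.75 (SE 0.13, edgeR adjusted p = 0.0308) with 5% and -0.95 (SE 0.13, edgeR adjusted p = 0.00289) with 10% RPS, a 1.93-fold lower level. Its adjusted p with 10% RPS equalled the lowest of the 15348 genes. The adjustment made this a tie with another gene, whose unadjusted p was as low or lower. The slope was -0.089 per percent RPS (edgeR adjusted p = 0.00752), again the lowest adjusted p only through a tie of the same kind. The fall with 10% RPS passed the threshold with each of the 20 mice left out in turn, whereas the fall with 5% RPS was lost in 7 of 20 such fits, without 0% RPS mouse 1, 3 or 4 or 5% RPS mouse 2, 3, 4 or 5 (adjusted p 0.0501 to 0.121).

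Ndrg1 (chr15:66801166-66841835, minus strand), a gene induced by hypoxia and cell stress, had the most counts of the 10, from 2717 to 21363 per mouse. Its level was 516, 467, 703, 522 and 613 CPM in 0% RPS mice. The 2% RPS mice were spread widely, at 416, 488, 313, 487 and 174 CPM. With 5% RPS it was 298, 208, 172, 188 and 202 CPM, and with 10% RPS 155, 203, 185, 359 and 255 CPM. The lowest control, at 467 CPM, was above all 10 of these mice, and the means of the 5% and 10% groups, 214 ± 49.3 and 231 ± 79.8 CPM, lay within each other's spread. The difference was -0.59 (SE 0.25, edgeR adjusted p = 0.849) with 2%, -1.40 (SE 0.25, edgeR adjusted p = 0.0377) with 5% and -1.29 (SE 0.25, edgeR adjusted p = 0.0251) with 10% RPS. Leaving out 1 mouse ended the call in 5 of 20 fits with 10% RPS (without 0% RPS mouse 3 or 5 or 10% RPS mouse 1, 2 or 3, adjusted p 0.0501 to 0.0819). It ended the call in 9 of 20 fits with 5% RPS, without 0% RPS mouse 1, 3, 4 or 5, 2% RPS mouse 1 or 5% RPS mouse 2, 3, 4 or 5 (adjusted p 0.0503 to 0.136).

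The remaining targets did not pass the test at any amount of RPS. Car9 (chr4:43506966-43513729, plus strand), a membrane carbonic anhydrase and a much used hypoxia marker, had 117 ± 7.73 CPM with 0%, 124 ± 14.4 with 2%, 116 ± 11.1 with 5% and 119 ± 12.2 with 10% RPS. Its spread within diets was the smallest of the 10 (0.14 on the log2 scale), and its difference with 10% RPS was 0.03, with a 95% interval from -0.15 to 0.22. A fall the size of that of Slc2a1 thus lay outside its interval. The vessel growth factor gene Vegfa (chr17:46327919-46343309, minus strand) had 137 ± 12.1, 146 ± 17.4, 129 ± 14.1 and 119 ± 12.6 CPM in the order of the diets, with 4 of 5 mice on 10% RPS below all controls. That difference was -0.21 (SE 0.10, edgeR adjusted p = 0.248). Adm (chr7:110226858-110229027, plus strand), which encodes the vasodilator adrenomedullin, was the most variable of the 7 targets within diets, at 8.31 ± 3.24 CPM with 0% and 7.62 ± 3.01 with 10% RPS, and its interval from -0.72 to 0.47 leaves room for a change of the size seen in Hif1a. Bnip3 (chr7:138490690-138511253, minus strand), a mitophagy receptor gene, had 10.6 ± 2.75 and 9.80 ± 1.34 CPM in these diets, a difference of -0.12 (95% interval -0.42 to 0.19). The adjusted p with 10% RPS in edgeR was 0.885 for Car9, 0.853 for Adm and 0.71 for Bnip3.

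Whether Stc1 moved with the others was asked within diets, on log2 CPM minus the mean of the mouse's own diet, which leaves out the fall by which Stc1 was chosen. Pearson's r over the 20 mice was 0.61 for Stc2, 0.59 for Slc2a1, 0.58 for Hif1a, 0.55 for Ndrg1 and 0.54 for Egln3. The permutation p was 0.0106 for Stc2, 0.0179 for Slc2a1, 0.0324 for Hif1a, 0.0291 for Ndrg1 and 0.0263 for Egln3 (two-sided, mice shuffled within diets), and each became 0.0583 when adjusted over the 9 relations. None of the 9 therefore passed the correction. For Adm r was 0.31 (permutation p = 0.227), for Vegfa 0.20 (permutation p = 0.452), for Bnip3 -0.01 (permutation p = 0.977) and for Car9 -0.09 (permutation p = 0.729). Spearman's rho was 0.57 for Stc2, 0.51 for Hif1a, 0.49 for Slc2a1, 0.46 for Egln3 and 0.43 for Ndrg1, with permutation p of 0.0196, 0.0456, 0.0550, 0.0574 and 0.0901 and an adjusted p of 0.129 or above. The sign of r was positive in each of the 4 diets for Stc2 and Hif1a and in 3 of 4 for Slc2a1, Ndrg1 and Egln3. It was also positive in 3 of 4 for Adm and for Bnip3, whose r was -0.01, and in 2 for Vegfa and 1 for Car9.

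Without the 2 mice whose Stc1 lay farthest from the median (2% RPS mouse 5 and 5% RPS mouse 5), which also narrows the range of Stc1, r was 0.42 for Stc2, 0.29 for Slc2a1, 0.38 for Hif1a, 0.37 for Ndrg1 and 0.42 for Egln3, each with an adjusted permutation p of 0.51. The 2% RPS mouse 5 was the lowest of its diet in Stc1, Stc2, Hif1a, Egln3, Slc2a1 and Ndrg1 together, and also in Vegfa, but not in Car9, Adm or Bnip3. In the other direction, 4 of 9 relations passed without 0% RPS mouse 3 and 5 of 9 without 10% RPS mouse 3. Over all 20 mice without centring, where diet enters and Stc1 was chosen for it, r was 0.89 for Slc2a1, 0.87 for Ndrg1, 0.79 for Hif1a and 0.73 for Stc2, but -0.02 for Car9 and 0.10 for Bnip3. These last values are a description only.

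**Figure D3:**
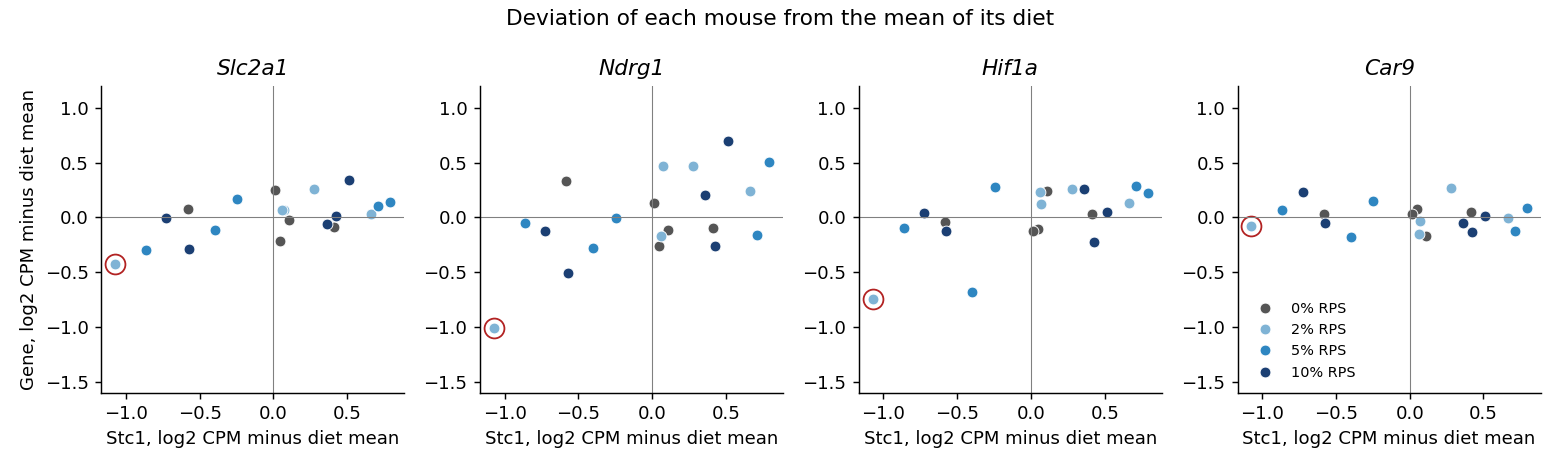
Each point is a mouse, with the deviation of its Stc1 level from the mean of its diet (horizontal axis, log2 CPM) against that of Slc2a1, Ndrg1, Hif1a or Car9 (vertical axis, same unit); colours are diets and the red ring marks 2% RPS mouse 5. The ringed mouse lies at the lower left for Slc2a1, Ndrg1 and Hif1a, where r was 0.59, 0.55 and 0.58, and near 0 for Car9, where r was -0.09.

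Among 13577 genes with a mean of at least 1 CPM, Slc2a1 ranked 4th and Ndrg1 10th by r with Stc1 over the 20 mice, while Hif1a ranked 81st, Stc2 203rd, Egln3 1627th, Vegfa 1670th, Adm 3646th, Bnip3 5324th and Car9 6816th. These ranks hold the fall for which Stc1 was chosen. After centring on diets Stc2 ranked 76th, Slc2a1 110th, Hif1a 139th, Ndrg1 205th, Egln3 238th, Adm 1969th, Vegfa 3395th, Bnip3 6590th and Car9 8106th. The 3 genes above Slc2a1 were Plaur, the urokinase receptor (r = 0.94), Hoxb9 (0.90) and the phosphatase gene Dusp5 (0.90). Below it in the first 8 came Sema7a, Zbtb7c, Ddost and Gnptg, with r from 0.89 to 0.88. Plaur averaged 35.2 ± 10.6 CPM with 0% and 12.8 ± 6.34 with 10% RPS, and Sema7a 83.5 ± 11.1 and 22.3 ± 14.8. After centring on diets the nearest genes were Plaur (r = 0.85), Fgfr4 (0.81), Hoxb9 (0.78), the goblet cell factor gene Spdef (0.78) and Slc25a37 (0.78). These are ranks among many genes and carry no test.

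Of 56 further known targets of the factor, in 4 lists (glycolysis and energy, vessel and hormone signals, mitophagy and stress, and matrix), 36 were lower and 20 higher with 10% RPS, with a median log2 fold change of -0.11 beside 0.00 over all genes. The lists were made with earlier results of these data known, so the shares of all genes are set beside them as a description. At an unadjusted p under 0.05, 17 of 56 (30.4%) were lower, against 9.75% of all genes, and 3 were higher. The edgeR threshold was passed by 4 in the lower and 1 in the higher direction, against 76 and 84 of all 15348 genes (1.04% in either direction). With 5% RPS 14 were lower and 2 higher at that unadjusted p, against 6.54% and 6.74% of all genes, and 0 passed in edgeR (0.195% of all genes). With 2% RPS 1 was lower (1.79%), against 3.19% of all genes, and 0 passed in edgeR, as did 0% of all genes.

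Of the 23 genes of the glycolysis and energy list, all tested, 19 were lower with 10% RPS and 13 had an unadjusted p under 0.05 in that direction (9.75% of all genes), with a median of -0.27. Slc2a1, Pfkfb4 and Gapdh passed the threshold (1.04% of all genes), and Ak4 was the 1 gene higher at the unadjusted p. Pfkfb4, which encodes an enzyme that sets the pace of glycolysis, fell from 32.1 ± 1.46 to 19.5 ± 4.82 CPM (-0.72, SE 0.16, edgeR adjusted p = 0.0289). Gapdh, a glycolytic enzyme gene, fell from 16.8 ± 3.42 to 9.79 ± 1.90 CPM (-0.78, SE 0.16, edgeR adjusted p = 0.0251), but it has near-identical pseudogene copies with which the counting could split reads, so its level is uncertain. Hk2, the hexokinase induced by hypoxia, had 302 ± 119 and 172 ± 31.1 CPM and did not pass (-0.81, SE 0.23, edgeR adjusted p = 0.0670).

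Of 14 targets for vessel and hormone signals, Hmox1 passed lower and Nos2 passed higher with 10% RPS (1.04% of all genes), with a list median of -0.05. At the unadjusted p 3 were lower and 1 higher, against 9.75% and 9.74% of all genes. Hmox1, the heme oxygenase gene, fell from 6.58 ± 1.34 to 3.56 ± 0.258 CPM (-0.88, SE 0.20, edgeR adjusted p = 0.0289). Nos2, the inducible nitric oxide synthase gene, rose from 0.792 ± 0.482 to 4.42 ± 2.73 CPM (2.48, SE 0.55, edgeR adjusted p = 0.0289). Flt1, a receptor for vessel growth factors, went from 28.7 ± 2.47 to 21.1 ± 3.41 CPM (-0.45), with an edgeR adjusted p of 0.0330 but a change under 1.5-fold. The list of mitophagy, stress and regulation targets had 21 genes other than the selected Stc1. Of these, Ndrg1 and the lipoprotein receptor gene Vldlr (30.3 ± 4.34 to 19.6 ± 3.04 CPM, -0.63, edgeR adjusted p = 0.0316) fell past the threshold (1.04% of all genes). At the unadjusted p 5 were lower and 0 higher (9.75% and 9.74% of all genes), and the median was -0.06. None of the 6 matrix targets passed in edgeR (1.04% of all genes), 1 (Loxl2) was higher at the unadjusted p (9.74% of all genes), and their median was -0.05.

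Of 11 barrier and iron genes tied to the factor in gut epithelium, 2 fell past the threshold with 10% RPS and 0 rose past it (1.04% of all genes in either direction). At the unadjusted p 3 were lower and 3 higher, against 9.75% and 9.74% of all genes, and the median was 0.07. Abcb1a, the drug efflux pump, fell from 998 ± 119 to 579.6 ± 103 CPM (-0.78, SE 0.14, edgeR adjusted p = 0.0111), and the mitochondrial creatine kinase Ckmt1 fell from 650.4 ± 89.1 to 425 ± 82.5 CPM (-0.62, SE 0.13, edgeR adjusted p = 0.0251). Both also passed with 5% RPS (edgeR adjusted p = 0.0434 and 0.0425). The adenosine pathway genes Adora2b and Nt5e were at 0.72 and 0.69 on the log2 scale and did not pass (edgeR adjusted p = 0.119 and 0.0792).

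The partners of the stanniocalcins were also read. Of the pappalysin axis 7 genes other than the selected Stc1 were tested, 2 were lower at the unadjusted p with 10% RPS (Stc2 and Igfbp5, against 9.75% of all genes), 0 passed in edgeR (1.04% of all genes), and the median was -0.16. Igfbp5, which encodes a growth factor binding protein cut by pappalysins, had 129 ± 45.8 and 74.2 ± 14.9 CPM with 0 and 10% RPS (-0.80, SE 0.23, edgeR adjusted p = 0.0757), and the protease gene Pappa2 was under 1 CPM in both. Of calcium and phosphate transport 9 genes other than Stc1 were tested, with 1 lower and 1 higher at the unadjusted p (9.75% and 9.74% of all genes), 0 past the edgeR threshold (1.04% of all genes) and a median of 0.11. The vitamin D hydroxylase gene Cyp24a1 varied from mouse to mouse, at 26.5 ± 30.7 and 3.48 ± 4.46 CPM (-2.97, SE 1.16, edgeR adjusted p = 0.178). The study, with DESeq2, called Cyp24a1 lower in the cecum with 10% RPS and named it the gene lowered most in any tissue. The phosphate carrier gene Slc34a2 had 14.1 ± 4.24 and 41.4 ± 25.3 CPM (1.55, SE 0.44, edgeR adjusted p = 0.0706).

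**Figure D4:**
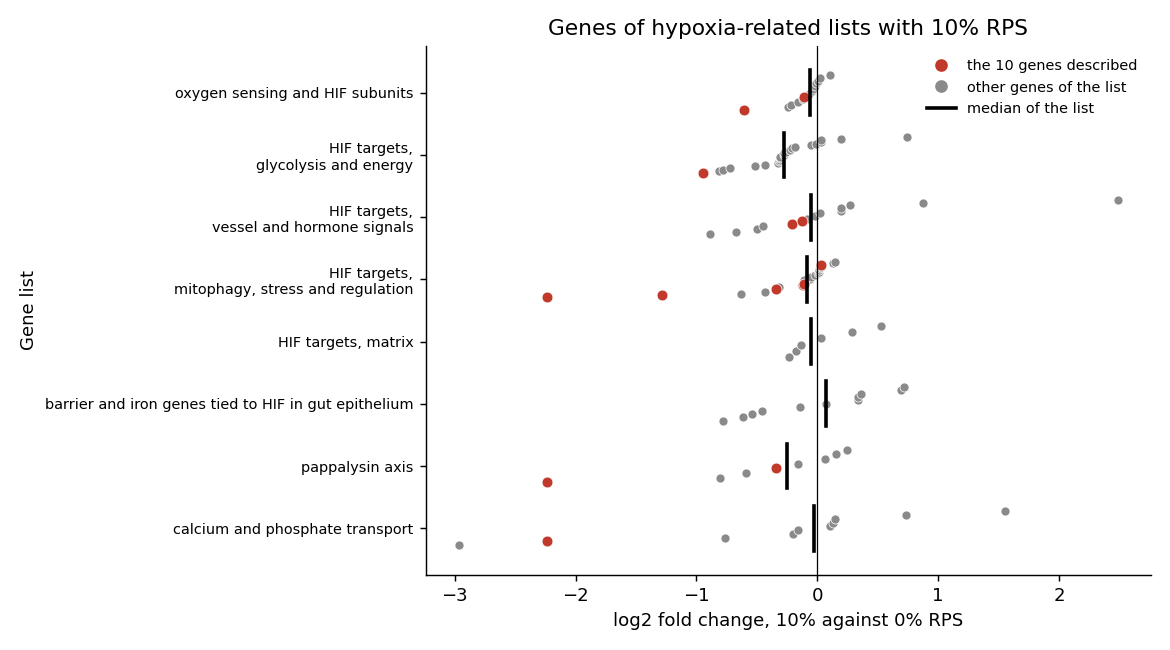
log2 fold change with 10% against 0% RPS (horizontal axis) of every tested gene in 8 lists (rows), with the 10 genes described in red and the median of each list, Stc1 included, as a black bar. The glycolysis and energy list has its median at -0.27 with 19 of 23 genes below 0, and Nos2 at 2.48 stands at the far right of the vessel and hormone list.

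The tissue was whole cecum, in which fewer cells of a type and less RNA per cell cannot be told apart. Of 12 marker lists, 3 had an unadjusted exact permutation p under 0.05 for their summed level between 10 and 0% RPS (goblet, smooth muscle and fibroblast). A single list cannot fall below an adjusted p of 0.0953 with 5 against 5 mice, so the adjusted values do not separate the lists that differed from the rest. The summed level of 6 goblet cell markers was 7531 to 10596 CPM (median 9982) with 0% and 6199 to 7438 CPM (median 6423) with 10% RPS, a ratio of means of 0.695. An exact permutation test over the mice gave p = 0.00794, the smallest it can give with 5 against 5 mice, and 0.0953 after adjustment over 12 lists. The 5 smooth muscle markers summed to 1891 to 4583 CPM (median 2553) with 0% and 3093 to 5499.6 CPM (median 4722) with 10% RPS, 1.59 times higher (exact permutation p = 0.0397, adjusted 0.133). The 6 fibroblast markers had a ratio of 1.35 (exact permutation p = 0.0317, adjusted 0.133). Of these 6, 5 were higher with 10% RPS, while Pdgfra went from 47.9 ± 11.3 to 38.5 ± 2.41 CPM (-0.31, edgeR adjusted p = 0.183). The 5 B and plasma cell markers had a ratio of 1.76 (exact permutation p = 0.0714, adjusted 0.143). The 4 tested of 5 erythroid markers had 0.566 (exact permutation p = 0.0556, adjusted 0.133). The 7 surface epithelium markers had a ratio of 0.813 (exact permutation p = 0.0556, adjusted 0.133), at 23181 to 39023 CPM in these diets. Most of that sum was Car1 (25146 ± 2139 CPM with 0% and 18627 ± 4056 with 10% RPS), whereas Slc26a3 of the same list rose from 1202 ± 167 to 1833 ± 412 CPM (0.61, edgeR adjusted p = 0.0487). The other 6 lists, of endothelium, enteric neuron and glia, T cell, macrophage, neutrophil and adipocyte markers, had ratios from 0.632 to 1.45 (exact permutation p 0.151 to 0.643). The neutrophil value rests on 1 tested gene of 4 listed, Csf3r. None of the listed markers was at 0 in all mice. Within diets the goblet sum had r = 0.58 with Stc1 (permutation p = 0.0230, adjusted 0.276 over 12 lists, rho = 0.43, permutation p = 0.0721), and r = 0.35 without the 2 farthest mice.

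When the log2 of the goblet sum was added to the edgeR fit, the difference with 10% RPS was -1.56 for Stc1, -0.75 for Slc2a1 (adjusted p = 0.0874) and -1.10 for Ndrg1 (adjusted p = 0.104). With the smooth muscle sum in its place it was -2.0 for Stc1, -0.89 for Slc2a1 (adjusted p = 0.0601) and -1.05 for Ndrg1 (adjusted p = 0.0871). With 5% RPS the difference was -0.64 for Slc2a1 and -1.29 for Ndrg1 with the goblet sum (edgeR adjusted p = 0.0949 and 0.115), and -0.68 and -1.07 with the smooth muscle sum (edgeR adjusted p = 0.489 and 0.50). Under either covariate 0 of the 9 tested members passed. Only 2 and 0 genes of the whole table passed under these covariates with 10% RPS, against 160 without them. The part of cell composition in the falls was not tested further.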

How the data were processed

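Cecal RNA from 20 mice (5 per diet, numbered 1 to 5 here in order of accession) was sequenced as stranded mRNA libraries. The authors mapped quality-filtered reads to GRCm39 in CLC Genomics Workbench and deposited whole-number counts per gene without normalization. The annotation they counted on was not given in the sources used here. Names and coordinates were taken from GENCODE M39 by Ensembl identifier, with 19827 of 19887 identifiers found. The counts were read as deposited. No pair of mice agreed within sampling noise (chi-square per degree of freedom at least 13.6 in 40 same-diet pairs).

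Genes were kept by filterByExpr (minimum count 10, minimum total 15), and edgeR 4.0.16 (R 4.3.3) was used for trimmed mean of M-values scaling, glmQLFit (robust) and glmQLFTest over 4 diet means fitted to all 20 mice, with Benjamini-Hochberg adjustment over 15348 genes. The study used DESeq2, run here (version 1.42.0) as an alternative. The trend was a slope over percent RPS. Log2 CPM had a prior count of 2. Correlations used 100000 permutations within diets (scipy 1.17.1). Intervals are 95%. The scripts were tested on simulated data.

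The members and gene lists were chosen with earlier results of these data known, and Stc1 was chosen by its fall with starch. Named list genes are those past the threshold in any comparison and, up to 4 per list, those with the largest log2 fold change with 10% RPS. Genes like Stc1 are the first 8 by r, and the first 5 after centring. Counts carry counting error as well as mouse-to-mouse spread, and the fold threshold was 1.5. Alternatives were the scaling, the test, the filter on low counts, robust fitting, the samples in the fit, each mouse left out, the fold threshold, the dose scale, the prior count and the rank correlation. The marker sum covariates were added after seeing the data. The sequence upstream of 1 of the 10 genes is not reported here.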

Additional observations from a re-analysis of the deposited data

Results flagged for a closer look

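In 40 groups of 5 mice (10 genes in 4 diets), a mouse far from the other 4 by Dixon's criterion was found in 4 groups, and chance marks about 1 in 20 groups. Hif1a in 2% RPS mouse 5 was 13.6 CPM, with the other 4 mice at 24.9 to 27.5 CPM, and this mouse was also the lowest of its diet in Stc1, Stc2, Egln3, Slc2a1, Vegfa and Ndrg1. Car9 in 0% RPS mouse 1 was 103 CPM, beside 119 to 123 CPM in the other controls. Ndrg1 in 5% RPS mouse 1 was 298 CPM, beside 172 to 208 CPM, and Bnip3 in the same mouse was 11.5 CPM, beside 10.2 to 10.6 CPM in the others of its diet. The causes were not tested.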

How the results depend on the processing

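The fall of Slc2a1 and of Ndrg1 with 5 and 10% RPS, and their trends, passed under the other scaling, DESeq2, both other filters, non-robust fitting, the fit of only 2 diets and no fold threshold (rank dose for the trend). With the smooth muscle or the goblet marker sum as a covariate, both chosen after seeing the data, 0 tested members passed with 10% RPS, with 5% RPS and for the trend, where the slope was -0.078 and -0.068 per percent RPS for Slc2a1 and -0.088 and -0.100 for Ndrg1. Without a covariate the slopes were -0.089 and -0.125. Nearly all calls of the whole table with 10% RPS were lost under these covariates too, as given above. The whole-table counts for 5% RPS and the trend are not given here, so the losses are not read as particular to the members. Leaving out 1 mouse gave 1 to 3 members with 10% RPS, 0 to 2 with 5% RPS, 0 to 0 with 2% RPS and 0 to 3 for the trend, where Slc2a1 was lost without 10% RPS mouse 1 (adjusted p = 0.0552 in edgeR). With all 20 mice, 160, 30, 0 and 170 genes of the whole table passed in the same order. The whole-table counts of the fits without 1 mouse are not given here, so the members' losses cannot be set beside them. Ndrg1 lost its trend in 11 of 20 such fits, without 0% RPS mouse 1, 3, 4 or 5, 2% RPS mouse 1, 2 or 4, 5% RPS mouse 1 or 10% RPS mouse 1, 2 or 3. The trend of Hif1a passed with DESeq2 (adjusted p = 0.0151), with the rank of the dose in edgeR (adjusted p = 0.0302) and without 2% RPS mouse 3 or 5, 5% RPS mouse 3 or 10% RPS mouse 4. The number of correlations with Stc1 that passed ran from 0 to 5 with 1 mouse left out, and was 0 with a prior count of 0.5, the other scaling or Spearman's rho. No called value changed sign. The small differences of Adm, Bnip3, Car9 and Egln3 changed sign with the mouse left out, with 10% RPS from -0.36 to 0.13 for Adm. No paired analysis was possible because mice of different diets share no number in the labels. Stc1 rested on as few as 23 counts in a mouse, and 5 mice per diet limit the size of change that can pass, as the interval of Adm shows. The causes of these dependences were not tested.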
